A study of Mus musculus with 2 samples.

Results

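The interleukin-1 (IL-1) family genes were examined in colonies and organoids grown from mammary basal cells in 3D matrix gel, alone or with M2-like macrophages. The 10 genes are the ligands Il1a, Il1b, Il33 and Il18, the receptor antagonist Il1rn, and the receptors Il1r1, Il1rap, Il1rl1, Il1rl2 and Il1r2. They are 10 of the 49492 genes in the count table. The 10 genes, like the gene lists used below, were chosen by name, with earlier results of these data known. The starting cells were wild-type mammary epithelial cells sorted as basal cells from adult female mice. They were cultured for 11 to 14 days without macrophages (ctrl) or in wells shared with the macrophages (M2), and 1 library was sequenced for each group. In the culture protocol of the study, macrophages came from bone marrow and were polarised with IL-4 and IL-13, then placed in a porous insert above the gel and renewed during the culture, and the medium of all wells held EGF and an insulin supplement. The labels give neither the number of mice behind a library nor whether cells were pooled. Because each group is a single library, the variation from culture to culture is unknown, and the intervals below cover counting error only.

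IL-1 family ligands are made by epithelial and immune cells, and they signal through pairs of receptor chains whose intracellular TIR domains recruit the adaptor Myd88 and the IRAK kinases, which switch on NF-κB and MAP kinases. IL-1α and IL-1β both bind the receptor Il1r1, which then pairs with the accessory chain Il1rap. The antagonist encoded by Il1rn occupies Il1r1 without recruiting Il1rap, and Il1r2 is a decoy that binds ligand but lacks a TIR domain. Il1rap is also the partner of Il1rl1 (the IL-33 receptor, ST2) and of Il1rl2 (the IL-36 receptor), whereas IL-18 uses the separate pair Il18r1 and Il18rap. In epithelia, IL-1α and IL-33 are known as stored alarm signals that are released on damage.

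Il1a and Il1rn had far more reads in the M2 library, Il18 and Il33 had fewer, and Il1b was almost without reads in both. The table lists Il1a on chromosome 2 from 129299610 to 129309972 and Il1b at 129364570 to 129371139, both on the minus strand of GRCm38. Both genes lie within 71.5 kb, and Il1a had many more reads in M2 while Il1b had hardly any, so the sequence around the start of each is given below together with that of Il1rn. Each run holds 250 bases before and 50 after a start site (RefSeq, GRCm38.p6), 5′ to 3′ on the strand of the gene. The first is chr2:129309923-129310222 (minus), the second chr2:129371090-129371389 (minus) and the third, the upstream start of Il1rn, chr2:24336610-24336909 (plus). Capitals mark matches to the TATA box letters TATAAA and to the AP-1 letters TGANTCA on either strand.
Il1a: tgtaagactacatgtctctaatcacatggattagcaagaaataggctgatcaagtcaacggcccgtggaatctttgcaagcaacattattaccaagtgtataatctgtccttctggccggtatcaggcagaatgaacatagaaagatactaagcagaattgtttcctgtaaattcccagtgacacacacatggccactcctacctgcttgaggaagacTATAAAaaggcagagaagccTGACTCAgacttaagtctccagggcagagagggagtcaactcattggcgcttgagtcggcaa
Il1b: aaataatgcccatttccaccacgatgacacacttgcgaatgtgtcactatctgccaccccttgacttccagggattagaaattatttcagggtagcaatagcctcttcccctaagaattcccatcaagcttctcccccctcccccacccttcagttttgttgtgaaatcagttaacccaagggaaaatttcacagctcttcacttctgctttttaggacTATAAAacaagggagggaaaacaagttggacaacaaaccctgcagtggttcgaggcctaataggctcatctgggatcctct
Il1rn: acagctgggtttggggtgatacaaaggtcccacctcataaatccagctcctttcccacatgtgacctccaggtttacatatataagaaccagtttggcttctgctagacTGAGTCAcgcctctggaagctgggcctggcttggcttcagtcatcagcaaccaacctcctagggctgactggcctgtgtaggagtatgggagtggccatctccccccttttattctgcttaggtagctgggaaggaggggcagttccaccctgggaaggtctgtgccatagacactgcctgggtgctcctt

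TATAAA began 32 bases before the start of Il1a (position -32) and at -31 in Il1b. An AP-1 match stood at -12 in Il1a and at -141 in the upstream window of Il1rn, and none was found in the Il1b window. These 3 windows were picked for print after the reads were seen. Among all 32851 promoter windows of this length, 13.6% hold TATAAA and 7.81% hold TGANTCA. Windows were found for the 10 members and for Il18r1 and Il18rap, 19 windows in all. Of these, 7 held TATAAA and 2 held TGANTCA, and no AP-1 match was found in the other Il1rn windows or in those of Il1rap, Il1rl1, Il18r1 and Il18rap, which were also called higher. Of the 19, 1 held the κB consensus, namely the downstream window of Il1r1, against 8.46% of all windows, and 0 held the C/EBP letters TTGCNNCAA, against 2.08%. These matches are descriptions of the letters and not of binding.

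At least 10 reads over both libraries were required for a test, and 8 of the 10 members reached it. In total 4 members were called higher in M2, 2 were called lower and 2 were not called, where a call needs at least a 2-fold difference and an adjusted p under 0.05 in an exact binomial test on the reads of the 2 libraries. This test compares the libraries and not the conditions. Over all 19233 genes tested, 14.7% were called, 8.16% higher and 6.55% lower. The median log2 difference of the 8 members was 0.91, against -0.0032 over all genes tested. The median hides movement in both directions, from -3.09 for Il18 to 6.46 for Il1a.

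**Figure D1:**
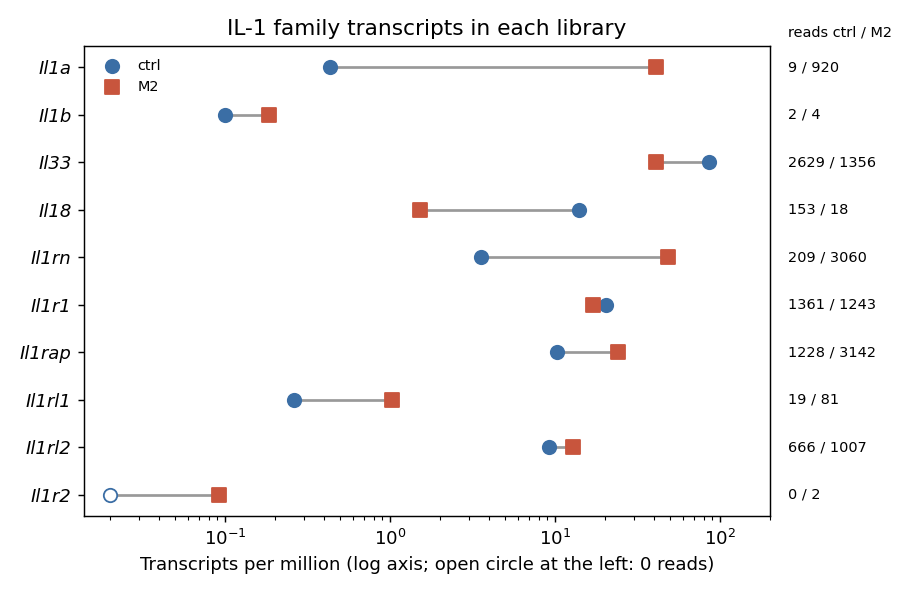
Level of each of the 10 IL-1 family genes in TPM (transcripts per 1000000) on a log axis, in the ctrl library (circles) and the M2 library (squares), with the reads of each library at the right. The widest gaps are those of Il1a, Il1rn and Il18, and the lowest genes are Il1b and Il1r2, with the open circle marking 0 reads.

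The ligands were examined first. Il1a, which encodes IL-1α, had 9 reads in ctrl and 920 in M2, or 0.432 and 40.8 TPM (transcripts per 1000000 transcripts, a level per length). The log2 difference was 6.46 (95% interval 5.68 to 7.74), an 87.8-fold higher value in M2, and it ranked as number 13 from the top among the 19233 genes tested. The gene Gm14023, on the other strand, shares 222 exon bases with Il1a, which is 11.2% of the length of Il1a, and had 20 and 258 reads. The use of strand in counting is not stated, so reads could pass from one of these genes to the other. When all reads of Gm14023 were added to Il1a, the difference was 5.23.

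Il1b encodes IL-1β, the form that is typical of activated macrophages. It had 2 reads in ctrl and 4 in M2, or 0.0993 and 0.184 TPM, too few to be tested, and the ratio of its reads had a 95% interval of -1.87 to 4.40 on the log2 scale. A count of 3 reads, set here as the floor, corresponds to 0.109 CPM (counts per 1000000 reads of the scaled library) in ctrl and 0.104 CPM in M2. In M2, the reads of the IL-1 agonists were almost entirely those of Il1a, 920 against 4 of Il1b.

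Il33 was the ligand with the highest level in ctrl. It lies on chromosome 19 (29925114 to 29960718) and had 2629 and 1356 reads, or 86.3 and 41.1 TPM. The log2 difference was -1.02 (95% interval -1.12 to -0.93), at the edge of the 2-fold threshold, with part of the interval inside it. Il18, on chromosome 9 (50554827 to 50581840), had 153 and 18 reads, or 14.1 and 1.53 TPM. Its log2 difference of -3.09 (-3.95 to -2.45), an 8.50-fold lower value in M2, ranked as number 194 from the bottom of all genes tested.

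Of the transcripts of the 4 ligands, counted per length, Il33 made up 85.5% in ctrl and 49.2% in M2. Il1a went from 0.428% to 48.8%, and Il18 from 13.9% to 1.83%. The summed level of the 4 ligands was 101 TPM in ctrl and 83.6 TPM in M2, so the make-up of the ligands differed much more than their sum.

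Il1rn, the natural brake on IL-1α and IL-1β, lies on chromosome 2 (24336853 to 24351494). The ctrl library held 209 of its reads and the M2 library 3060, or 3.58 and 48.4 TPM. The log2 difference was 3.80 (95% interval 3.60 to 4.01), a 13.9-fold higher value, and ranked as number 121 from the top. The table counts reads per gene and does not separate the secreted from the intracellular forms of the antagonist, which start at different sites.

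To compare agonist with antagonist, the ratio of Il1a and Il1b together to Il1rn was taken within each library, which does not depend on library scaling. In reads per kilobase it was 0.149 in ctrl and 0.847 in M2. By this measure antagonist exceeded agonist 6.73 to 1 in ctrl and 1.18 to 1 in M2. In plain reads it was 209 against 11 in ctrl and 3060 against 924 in M2. The size of the ratio within a library thus depends on the gene lengths used, 5535 bases for Il1rn and 1974 for Il1a. The log2 change was 2.51, and for the reads themselves the conditional odds ratio had a 95% interval of 1.64 to 3.55 on the log2 scale. The ctrl ratio rests on 11 agonist reads. The gene Gm14023, which overlaps Il1a, had 20 reads in ctrl and 258 in M2. If reads passed between it and Il1a, the ratio and its change would differ, and the interval does not cover this. With all reads of Gm14023 added, the difference of Il1a fell from 6.46 to 5.23. The change of the ratio would then be smaller than 2.51, and its size was not computed. With Il1b alone, which had 2 and 4 reads, the change was -2.87, with an interval of -5.68 to 0.60 that includes 0. These are ratios of transcripts and say nothing of the proteins.

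**Figure D2:**
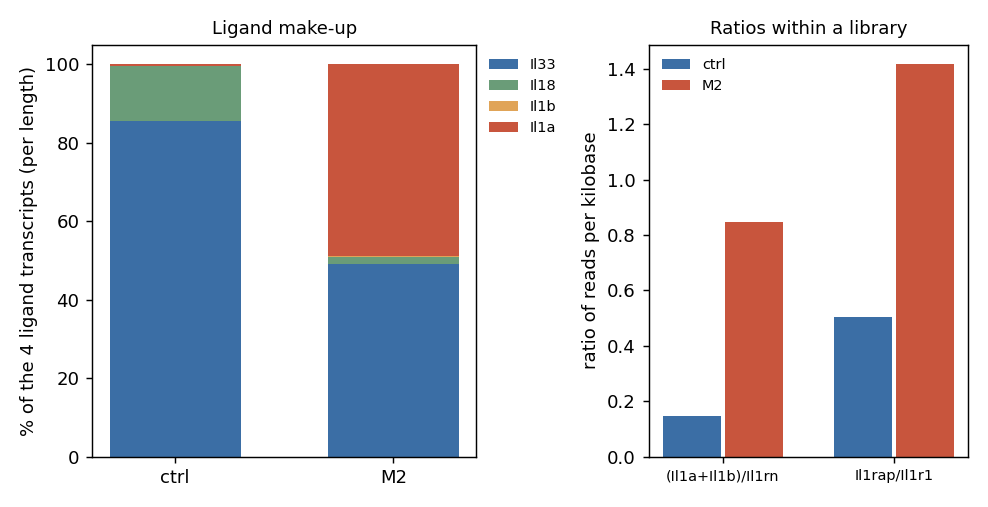
Left, share of Il33, Il18, Il1b and Il1a among the transcripts of the 4 ligands in percent, counted per length, in the ctrl and the M2 library. Right, ratio of reads per kilobase within each library for Il1a and Il1b over Il1rn (0.149 and 0.847) and for Il1rap over Il1r1 (0.505 and 1.42), with 1 library per bar and no replicate error.

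Of the 4 receptors that were tested, 2 were called higher and 0 lower (50% called, against 14.7% of all genes tested), with log2 differences from -0.20 to 1.97. Il1r1, the signalling receptor of IL-1α and IL-1β, lies on chromosome 1 (40225080 to 40317257) and had 1361 and 1243 reads, or 20.3 and 17.1 TPM. Its log2 difference of -0.20 (95% interval -0.31 to -0.09) was far from 2-fold and was not called. The decoy Il1r2 had 0 and 2 reads, at or under the floor of 3 reads in both libraries, so no fold was computed. In M2 the ratio of Il1r2 to Il1r1 in reads per kilobase was 0.00537, which means that decoy transcripts were rare beside those of the signalling receptor.

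Il1rap, the shared accessory chain (chromosome 16, 26581704 to 26730117), had 1228 and 3142 reads, or 10.2 and 24.2 TPM. The log2 difference was 1.29 (95% interval 1.19 to 1.38), and Il1rap was called higher. Relative to Il1r1, Il1rap went from 0.505 to 1.42 in reads per kilobase, a log2 change of 1.49 (interval for the reads 1.34 to 1.63). Relative to the 3 primary receptors that pair with it (Il1r1, Il1rl2 and Il1rl1) it went from 0.344 to 0.779. Both ratios were chosen after the values were seen. Gm20319, on the other strand, shares 552 exon bases with Il1rap, or 4.86% of its length, and had 304 and 807 reads. With all of these added, the difference of Il1rap was 1.30.

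Il1rl1, the IL-33 receptor, is on chromosome 1 (40429570 to 40465415). It had 19 and 81 reads, or 0.261 and 1.03 TPM, and was called higher with a log2 difference of 1.97 (95% interval 1.29 to 2.83). Even so, its level in M2 was the lowest among Il1r1, Il1rap, Il1rl1 and Il1rl2, and the ratio of Il1rl1 to Il1r1 in reads per kilobase was 0.0129 in ctrl and 0.0602 in M2. The ligand Il33, which was at the edge of the 2-fold threshold, and its receptor thus differed in opposite directions between the libraries. Counts per gene do not separate the forms of Il1rl1, for which 2 start sites were found. Il1rl2, the IL-36 receptor (40324610 to 40367562 on the same chromosome), had 666 and 1007 reads, or 9.26 and 12.9 TPM. Its difference of 0.53 (0.38 to 0.67) was under 2-fold and was not called.

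The receptor genes lie side by side on chromosome 1, from Il1r2 to Il18rap within 478 kb that hold 10 genes of the table. Il18r1 (40465552 to 40500854), which binds IL-18, starts just behind Il1rl1. It had 154 and 1229 reads, or 3.03 and 22.3 TPM, and a log2 difference of 2.92 (95% interval 2.68 to 3.18). Il18rap (40515362 to 40551705), its signalling partner, had 26 and 164 reads and a difference of 2.54 (1.99 to 3.24). The genes at the Il18rap end of this row, Il1rl1, Il18r1 and Il18rap, were thus called higher, whereas Il1r1 and Il1rl2 at the other end were not called. Both chains of the IL-18 receptor rose where the transcript of Il18 itself fell. Il18bp, a secreted protein that binds and blocks IL-18, had 376 and 349 reads and a difference of -0.18 (-0.39 to 0.04). It shares 80 exon bases with Numa1 on the other strand, which had 16053 and 14828 reads, so the value of Il18bp is uncertain. In reads per kilobase, the ratio of Il18 to Il18bp stood at 1.19 without macrophages and at 0.151 with them. Its log2 change was -2.98 (interval for the reads -3.80 to -2.23), and this ratio too was chosen after the values were seen. Sigirr, a receptor that dampens IL-1 signalling, had 238 and 180 reads and a difference of -0.47 (-0.76 to -0.19) and was not called.

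The IL-36 ligands, which signal through Il1rl2 and Il1rap, are listed under their older names beside Il1rn on chromosome 2. Il1f6 (IL-36α; 24215418 to 24225702) was without reads in ctrl (0) and had 64 in M2, at least 20.3-fold higher when the ctrl library is set to 3 reads, a bound that leaves out the counting error of the 64 reads. The 95% limit nearest to 0 from both counts was 4.01 on the log2 scale, or 16.1-fold. Il1f9 (IL-36γ; 24186476 to 24193568) had 5 and 53 reads and a log2 difference of 3.10 (95% interval 2.02 to 5.02). Il1f8 (IL-36β) went the other way, with 13 reads and 1 read, a log2 ratio of -3.77 (-9.18 to -1.03). Il1f5, the IL-36 receptor antagonist, had 19 and 21 reads and a difference of 0.07 (-0.89 to 1.05). Unlike Il1rn, the antagonist of this branch had a value near 0, although its interval reaches 2-fold. Il1f10, Il1rapl1 and Il1rapl2 had 0 reads in both libraries. Of the 11 other family genes, 8 were tested, 4 were called higher and 1 lower (62.5% of those tested, against 14.7% of all genes tested).

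**Figure D3:**
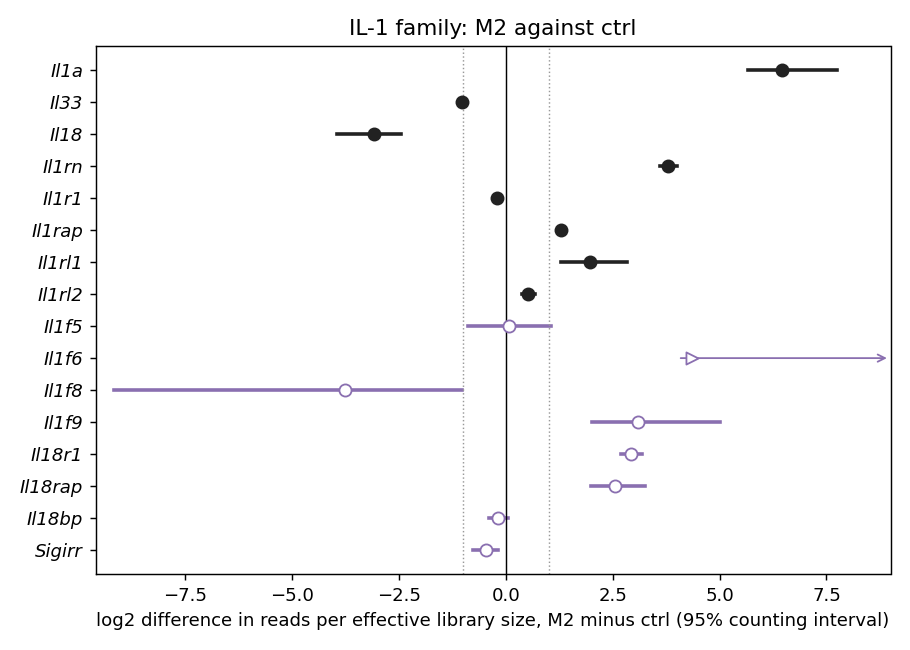
Log2 difference in reads per effective library size, M2 minus ctrl, for the 8 tested members (filled) and 8 other tested IL-1 family genes (open), with 95% counting intervals and dotted lines at 2-fold. The Il1f6 arrow has no upper end because ctrl held 0 reads, its triangle stands at the bound set by 3 reads, and the Il1f8 point is the plain ratio of its reads.

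The steps before and after the receptors were examined next, with gene lists for processing and release, for adaptors and kinases, and for the response to IL-1. Among 25 genes of processing and release, 15 were tested, 4 were called higher and 0 lower, with a median of 0.36. The share called was 26.7%, against 14.7% of all genes tested. The called genes were Nlrp10 (47 and 476 reads, 3.24), Gsdmd (35 and 185 reads, 2.30), Mmp9 (330 and 1104 reads, 1.67) and Casp4 (112 and 291 reads, 1.30), where the last value of each is the log2 difference. Gsdmd encodes gasdermin D, which forms pores in the membrane, and Casp4 an inflammatory caspase that can cleave it. Casp1, the protease that matures IL-1β and IL-18, had 545 and 635 reads and a difference of 0.15 (95% interval -0.02 to 0.32). Pycard, the inflammasome adaptor, had 319 and 251 reads and a difference of -0.41 (-0.66 to -0.17). Nlrp3, the best known inflammasome sensor of myeloid cells, had 0 reads and 1 read.

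Among the 23 adaptors and kinases all were tested, 2 were called higher and 0 lower, and the median was -0.0076. The share called, 8.70%, lies below the 14.7% of all genes tested. Irak3, a kinase-dead IRAK that restrains signalling from the receptor complex, had 265 and 2216 reads, or 6.83 and 52.8 TPM, with a log2 difference of 2.99 (95% interval 2.81 to 3.18). Peli3, a ubiquitin ligase of the Pellino family that acts on IRAKs, had 110 and 452 reads and a difference of 1.96 (1.67 to 2.28). The best known members of the cascade had small differences. Myd88 had 1054 and 942 reads (difference -0.23), Irak1 1222 and 1157 (-0.15), Irak2 490 and 474 (-0.12), Irak4 1087 and 1410 (0.31) and Traf6 1193 and 1156 (-0.11), and none of these was called.

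The response list holds 36 genes that IL-1 is known to induce in epithelial or stromal cells. TNF-α and Toll-like receptor ligands induce most of them too, so the list does not tell these signals apart. All 36 were tested and had a positive difference, against 49.7% of all genes tested, and the median was 2.48. Of these, 29 (80.6%) were called higher and 0 lower, against 8.16% and 6.55% of all genes tested. The list was chosen with earlier results of these data known. The study had also reported TNF-α signalling among the genes higher with macrophages in this comparison. These counts therefore describe the list and are no independent test. The 7 that were not called ranged from 0.30 to 1.18. Among the called genes with the most reads, the neutrophil-attracting chemokine Cxcl5 rose from 190 to 16152 reads, by 6.33 on the log2 scale (95% interval 6.13 to 6.55). Cxcl1, of the same kind, rose from 6471 to 32661 reads, by 2.27. Lcn2, an iron-withholding defence protein, rose from 12343 to 76343 reads, by 2.56, and the metalloreductase Steap4 from 2409 to 18569, by 2.88. Sod2, the mitochondrial superoxide dismutase, rose by 1.76, the cytokine Lif by 1.81, Nfkbiz, an atypical IκB that is a known co-activator in this pathway, by 1.35, and Ptgs2, which makes prostaglandin precursors, by 1.02.

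**Figure D4:**
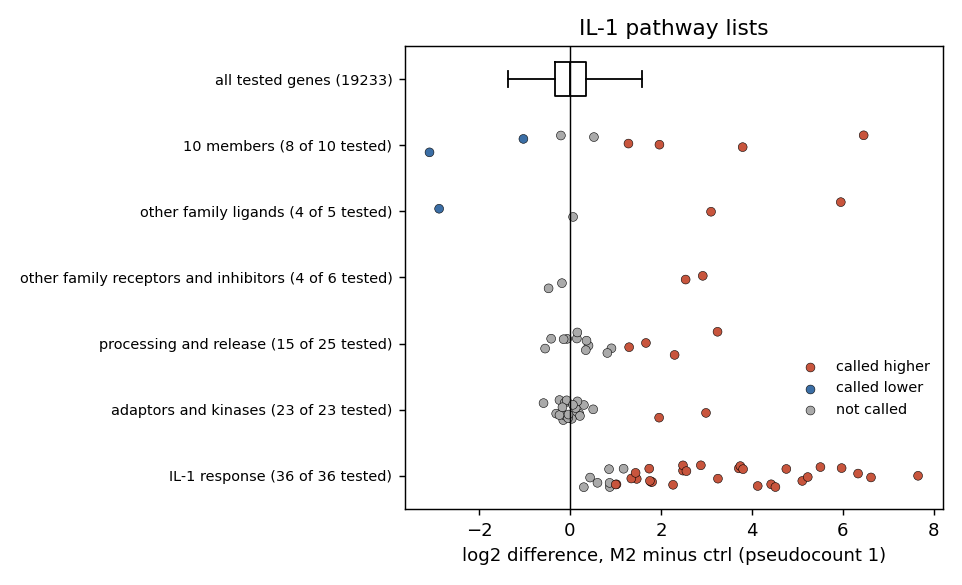
Log2 difference, M2 minus ctrl, of each tested gene in the 10 members and in 5 pathway lists, coloured by call, below a box for all 19233 genes tested (median, quartiles, and whiskers at the 5th and 95th percentiles, -1.37 and 1.58). The adaptors and kinases lie around 0 apart from Irak3 and Peli3, all 36 response genes lie above 0, and the value plotted for Il1f6 depends on the pseudocount because ctrl held 0 reads.

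To see which cells gave the reads, marker lists were counted. By flow cytometry, the study found mostly luminal cells and a small part of basal cells in such cultures, both without and with macrophages. In its values the luminal part was smaller and the basal part larger with macrophages. The sums below are levels of RNA and not shares of cells. The basal markers summed to 9550 and 10510 CPM and the luminal markers to 4192 and 3380, and each of the 24 genes was found in both libraries, led by Krt14, Krt5, Myh11 and Itgb1 and by Krt8, Epcam, Krt18 and Krt19. In bulk RNA, fewer cells of a type and less RNA per cell cannot be told apart. Of 24 macrophage markers, 19 had 3 or fewer reads in ctrl and 16 in M2, and 8 had 0 in both, Ptprc and Adgre1 among them. The summed level was 67.5 and 85.9 CPM, most of it from Arg1 (1507 and 2090 reads), and without Arg1, a choice made after its values were seen, 12.7 and 13.4. Cd68 had 170 and 165 reads and Csf1r 94 and 92. In the same list Cd163 (2 and 30 reads) and Aif1 (3 and 40 reads), both named after their values were seen, were called higher and Mertk lower. The part of macrophage RNA in the values of the family was not tested.

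Of the 7 mast cell markers, 5 had 0 reads in both libraries, and the sum was 9 reads in each. The neutrophil list summed to 276 and 2148 reads, nearly all from Ltf (271 and 2133), a gene that epithelium also uses. Both tested genes of the list were called higher, Ltf (log2 difference 2.90) and Camp (3 and 14 reads), and 4 of its 8 genes had 0 reads in both, Ly6g, Mpo, Csf3r and Retnlg. Of the 8 T and innate lymphoid cell markers, 4 had 0 reads in both, and Cd247 (251 and 272) and Lck (24 and 89) gave most of the 276 and 363 reads. Lck was called higher (1.78) and Cd247 was not called. The part of neutrophil or lymphoid RNA in the values of the family was not tested. In the fibroblast list 6 of 11 tested genes were called lower and 1 higher, and the sum was 3874 and 2827 CPM, led by Postn (72824 and 71795 reads), Col5a2 (12469 and 4341), Col6a3 (9433 and 523) and Col1a2 (4463 and 1457). In the endothelial list, 89 and 107 reads in all, 2 of 4 tested genes were called lower and 1 higher. Of the 12 luminal genes, 6 were called lower and 0 higher, with a median of -0.94. Those called lower were Elf5, Kit, Foxa1, Esr1, Pgr and Prlr. The other 6, with Krt8, Epcam, Krt18 and Krt19 among them, were not called. Of the 12 basal genes, 1 was called higher and 1 lower, with a median of -0.0089. The median of the tested fibroblast genes was -1.56. The part of the luminal and fibroblast differences in the values of Il33 and Il18 was not tested. For comparison with these lists, 14.7% of all genes tested were called, 8.16% higher and 6.55% lower.

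The calls were repeated with the exactTest function of edgeR, which takes a biological coefficient of variation that has to be assumed here. At 0.2, under which 8.61% of all genes tested were called (5.01% higher and 3.59% lower), Il1a, Il1rn, Il1rap and Il1rl1 were called higher and Il18 lower, and Il33 was not called. At 0.4, under which 1.59% were called (0.91% higher and 0.676% lower), Il1a and Il1rn were called higher and the other members were not called. The response list had 26 of 36 genes called higher at 0.2 and 15 at 0.4. When at least 1 CPM was asked for in both libraries, under which 9.5% of genes were called (5.52% higher and 3.98% lower), Il1rn and Il1rap were called higher and Il33 lower, while Il1a, Il1rl1 and Il18 were not tested. The coefficient of variation itself cannot be estimated from these libraries.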

How the data were processed

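RNA of cultured colonies and organoids was sequenced, 1 library per group. The series text speaks of a microarray, but the values are sequencing counts. The authors deposited counts of reads for each gene, without normalization, beside gene lengths in bases. The labels name a SMARTER mRNA kit and the processing notes name the build GRCm38 (mm10), and the labels and the study's methods name different RNA extraction reagents. The aligner, the counter, the annotation and the use of strand are not given in the sources used here. The start and end of the 10 members are those of GENCODE M21. The libraries held 26912610 (ctrl) and 29413844 (M2) reads in genes. Gsdme was found under its older name Dfna5.

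Library sizes were scaled by the trimmed mean of M values in edgeR 4.0.16 (R 4.3.3), with factors of 1.02 and 0.980. Log2 differences use a pseudocount of 1. Genes with at least 10 reads in all were tested by a two-sided exact binomial test with Benjamini-Hochberg adjustment over all genes. The design leaves no residual degrees of freedom, so the quasi-likelihood test could not be run. Intervals are 95% Clopper-Pearson intervals, or conditional odds ratio intervals (scipy 1.17.1) for ratios, and they cover counting error only, since no molecular identifiers are stated. TPM were computed from the counts and lengths. Each gene has a single length for all its transcripts, so levels per length that are compared between genes depend on it.

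The members, the lists and the alternatives were chosen with earlier results of these data known. Named are the members, the other family genes, up to 8 called genes with the most reads per list and direction, the core of the cascade (Casp1, Pycard, Nlrp3, Myd88, Irak1, Irak2, Irak3, Irak4 and Traf6), and the 4 markers with the most reads per list with Ptprc, Adgre1 and Csf1r; others were named after their values were seen. Alternatives were 3 other scalings, 2 filters, 2 pseudocounts, a 4-fold threshold and assumed coefficients of variation of 0.1, 0.2 and 0.4.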

Additional observations from a re-analysis of the deposited data

How the results depend on the processing

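The 8 tested members were recomputed under the alternatives, 85 values in all. Direction and call (called or not called) were kept in 77, the call was lost in 8, and 0 changed direction. The 4-fold threshold and the assumed coefficients of variation leave the log2 difference as it is, so direction could not change there. Among the 77, Il1r1 and Il1rl2, not called for their size, had an adjusted p under 0.05 in the binomial test but not at assumed coefficients of variation of 0.1, 0.2 and 0.4 (6 values). Under an assumed coefficient of variation of 0.4, Il18 (-3.09), Il1rap (1.29), Il1rl1 (1.97) and Il33 (-1.02) were not called, and Il33 was not called with 0.2 either. Of the members, 4 higher and 2 lower became 2 and 1 with at least 1 CPM in both libraries, which removes Il1a, Il1rl1 and Il18 from the test, 2 and 1 at a 4-fold threshold, where Il1rap (1.29), Il1rl1 (1.97) and Il33 (-1.02) were not called, and 2 and 0 at an assumed 0.4. At 0.2, 1 was lower. The pathway genes called higher went from 39 to 17 at 0.4, and those called lower from 1 to 0 with the CPM filter, at 0.2 and at 0.4. Over all genes, 1570 higher and 1260 lower became 806 and 581 with the CPM filter, 616 and 494 at 4-fold, 964 and 691 at 0.2, and 175 and 130 at 0.4. The agonist to antagonist change of 2.51 turned to -2.87 with Il1b alone, which rests on 2 and 4 reads. That change was not recomputed with the reads of Gm14023 added. Scaling moved all differences by -0.06 to 0.0035 against the main scaling. Adding the reads of overlapping genes and the 4-fold threshold for single members were chosen after seeing the data. No fold could be given for the ratio of Il1r2 to Il1r1. Depth limits Il1b, Il1r2 and Nlrp3. No paired analysis was possible because with 1 library a group there was nothing to pair.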
